A study of Homo sapiens with 6 samples.

Results

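CXCL8, which encodes interleukin-8, was the most abundant of 6 chemokine genes described here and the one that differed most between the groups. Its mean level was 233 FPKM (fragments per kilobase of the gene's row, scaled to library size) in the control libraries and 791 FPKM in the mimic libraries. The other genes are CXCL1, CXCL2, CXCL3, CXCL16 and CCL20. The 6 genes were chosen by name, with the fold changes of these same libraries known, from 26341 table rows that name a single gene. Their differences between the groups are therefore a description: no p-value is given for them, and where the fit across all genes placed one past its threshold, that is stated only as a property of the fit and supports nothing. Of the 6, 5 passed the filter on low values, an FPKM of at least 1 in at least 3 libraries, and CXCL16 did not.

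The study sequenced polyadenylated RNA of MDA-MB-231, an established human line of triple-negative breast cancer, meaning breast cancer without oestrogen receptor, progesterone receptor or HER2 amplification. The mimic group of 3 libraries came from cells transfected with a mimic, and the control group of 3 libraries is titled with the letters nc, which the labels do not spell out. The series title names TNF-α, miR-5001-5p and signalling through MNK2a and p38, but the labels give the sequence of neither oligonucleotide, no dose and no time after transfection. No label lists TNF-α as a treatment. Whether the 3 libraries of a group came from separate cultures is not stated, and p-values below therefore measure only the spread between these libraries, which may be technical.

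Chemokines are small secreted proteins that guide cells along a gradient by activating receptors coupled to G proteins. CXCL8, CXCL1, CXCL2 and CXCL3 share a short motif before their paired cysteines, act on CXCR2 (CXCL8 also on CXCR1) and attract neutrophils. CCL20 attracts CCR6-bearing lymphocytes and dendritic cells, and CXCL16 is made as a membrane protein that binds CXCR6 and can be released by ADAM10 and ADAM17. Genes of this kind are classic targets of NF-kB and AP-1, and their messenger RNAs are short-lived because AU-rich elements in the 3′ untranslated region recruit decay factors. MDA-MB-231 is known to secrete interleukin-8 without added stimulus.

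The promoter stretches are shown for their matches to NF-kB motifs and, in CXCL8 alone, to an AP-1 motif. Each line holds bases -140 to -41 before the RefSeq start (GRCh38.p14), read 5′ to 3′ on the strand of the gene. CXCL8 is chr4:73740429-73740528 and CXCL1 is chr4:73869253-73869352, both on the plus strand. CXCL2 is chr4:74099236-74099335 and CXCL3 is chr4:74038730-74038829, both on the minus strand, and CCL20 is chr2:227813702-227813801 on the plus strand. Capitals mark matches to GGAATTTCC, to the kappaB consensus GGGRNNYYCC and to the AP-1 motif TGANTCA, each searched on both strands. Here R is A or G, Y is C or T and N is any base.
CXCL8: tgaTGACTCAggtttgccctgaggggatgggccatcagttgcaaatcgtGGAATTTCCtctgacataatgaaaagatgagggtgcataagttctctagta
CXCL1: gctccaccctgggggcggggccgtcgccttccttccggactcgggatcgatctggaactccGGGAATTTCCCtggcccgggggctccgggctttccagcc
CXCL2: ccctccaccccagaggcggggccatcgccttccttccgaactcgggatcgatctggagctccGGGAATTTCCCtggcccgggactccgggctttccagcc
CXCL3: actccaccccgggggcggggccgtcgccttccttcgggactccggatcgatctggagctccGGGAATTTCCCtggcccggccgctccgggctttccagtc
CCL20: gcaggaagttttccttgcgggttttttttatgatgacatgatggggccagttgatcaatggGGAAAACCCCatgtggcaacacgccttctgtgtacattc
GGAATTTCC began at -91 in CXCL8, at -78 in CXCL1 and CXCL3 and at -77 in CXCL2, and was not matched in the CCL20 window. It overlaps the matches to the kappaB consensus in CXCL1, CXCL2 and CXCL3, and CCL20 had a consensus match of its own at -79 to -70 on the opposite strand. CXCL8 matched GGAATTTCC but not this longer consensus. CXCL8 alone of the 5 matched TGANTCA, at -137 to -131. TATAAA lay at -31 to -26 in CXCL8 and at -29 to -24 in CCL20, downstream of the stretches shown. Among 35116 RefSeq promoters searched over 250 upstream bases, 0.413% held GGAATTTCC, 9.96% the kappaB consensus, 6.57% TGANTCA and 10.7% TATAAA. A match describes these letters only. The promoters of CXCL1, CXCL2 and CXCL3 were 83.3% to 86.8% identical in pairs, and their coding sequences 90.7% to 94.4%. Reads may therefore have been split among these 3 genes during counting, and their single values are uncertain to that extent.

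The microRNA of the title is shown for its seed, bases 2 to 8, in capitals. It lies at chr2:232550530-232550553 on the minus strand (RefSeq, GRCh38.p14).
miR-5001-5p: aGGGCUGGacucagcggcggagcu
The seed match CCAGCCC was found in the 3′ untranslated region of none of the 6 chemokine genes, taking the longest GENCODE 29 form of each. Of 9055 tested genes with such a region, 2094 (23.1%) held it. A poly(A) library does not measure the mature microRNA, so its level was not checked here.

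CXCL8 lies at chr4:73740506-73743716 on the plus strand (GRCh38), and its identifier is ENSG00000169429. Its raw read counts were 17751, 15944 and 17210 in control libraries 1 to 3, and 62624, 54381 and 56042 in mimic libraries 1 to 3. Every mimic library was above every control library, and the spread within a group was small beside the gap. On the per-length scale the levels were 233 ± 12.8 FPKM (SD, n = 3) in the control group and 791 ± 58.5 FPKM (SD, n = 3) in the mimic group. The edgeR fit gave a log2 fold change of 1.84 ± 0.07 (SE), a 3.59-fold difference. Among 11260 tested genes CXCL8 was the 80th most abundant in the control group and the 16th in the mimic group, and its log2 fold change was the 9th highest. Its log2 fold change was between 1.76 and 1.88 in the alternatives, which reuse these libraries and include fits that leave out 1 of them.

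CXCL1 (ENSG00000163739, chr4:73869393-73871242, plus strand), first known as a growth factor of melanoma cells, was the second most abundant. Its counts were 4485, 3398 and 4195 in the control libraries and 5149, 3527 and 4735 in the mimic libraries. Library 2 was the lowest of each group, and the groups overlapped. The means were 96.9 ± 13.5 FPKM (SD, n = 3) in control and 108 ± 19.9 FPKM (SD, n = 3) in mimic, with a log2 fold change of 0.23 ± 0.16 (SE).

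CXCL2 (ENSG00000081041, chr4:74097035-74099293, minus strand), a neutrophil attractant also made by macrophages, had counts of 1419, 1432 and 1626 in the control libraries and 2009, 1596 and 1628 in the mimic libraries. Mimic library 1 stood above the others, while mimic library 2 was below control library 3 in reads. Its levels were 31.1 ± 2.78 FPKM (SD, n = 3) and 36.3 ± 4.74 FPKM (SD, n = 3), with a log2 fold change of 0.30 ± 0.11 (SE).

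CXCL3 (ENSG00000163734, chr4:74036589-74038807, minus strand), the closest relative of CXCL2 by coding sequence, had counts of 495, 458 and 524 in the control libraries and 695, 693 and 599 in the mimic libraries. The groups did not overlap. Its levels were 6.93 ± 0.52 FPKM (SD, n = 3) and 9.31 ± 0.81 FPKM (SD, n = 3). The log2 fold change was 0.50 ± 0.10 (SE), or 1.42-fold. The fit placed CXCL3 past an adjusted threshold of 0.05, but it fell outside the threshold with the replicate number as a block, and without control library 1, control library 2 or mimic library 2.

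CCL20 (ENSG00000115009, chr2:227805739-227817564, plus strand), the only CC chemokine of the 6, had counts of 79, 74 and 66 in the control libraries and 90, 67 and 106 in the mimic libraries. Mimic library 2 lay inside the control range. Its levels were 1.43 ± 0.11 FPKM (SD, n = 3) and 1.72 ± 0.38 FPKM (SD, n = 3), with a log2 fold change of 0.34 ± 0.21 (SE). CXCL16 (ENSG00000161921, chr17:4733526-4739922, minus strand), the membrane-bound ligand of CXCR6, had counts of 53, 73 and 59 in the control libraries and 65, 68 and 64 in the mimic libraries. All mimic values lay within the control range, between 0.582 and 0.808 FPKM. CXCL16 overlaps MED11 on the opposite strand, and without a stated strand setting reads of the pair cannot be told apart. The other 5 genes overlap no annotated gene.

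**Figure D1:**
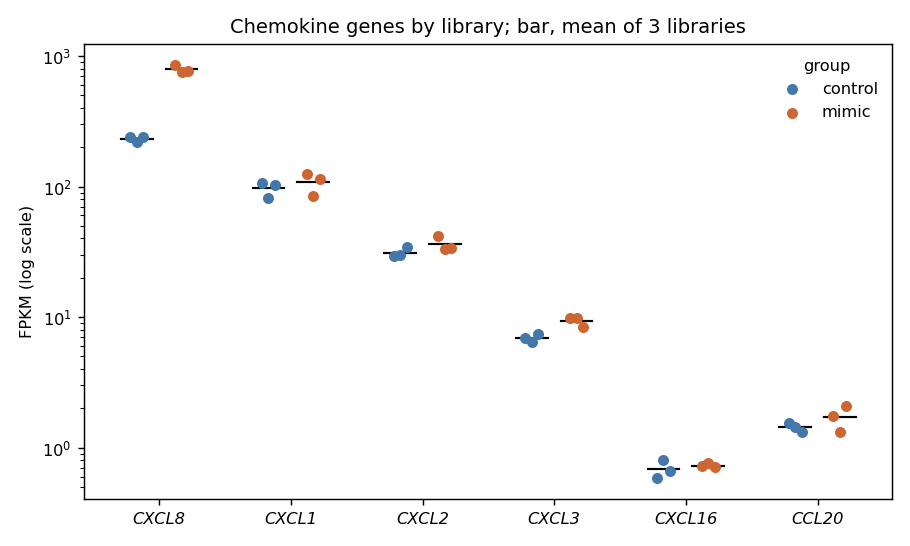
FPKM on a log axis for each chemokine gene in the 3 control and 3 mimic libraries, with a bar at each group's mean. CXCL8 goes from a mean of 233 to 791 FPKM with no overlap, and the groups of CXCL1, CXCL2, CXCL16 and CCL20 overlap.

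**Figure D2:**
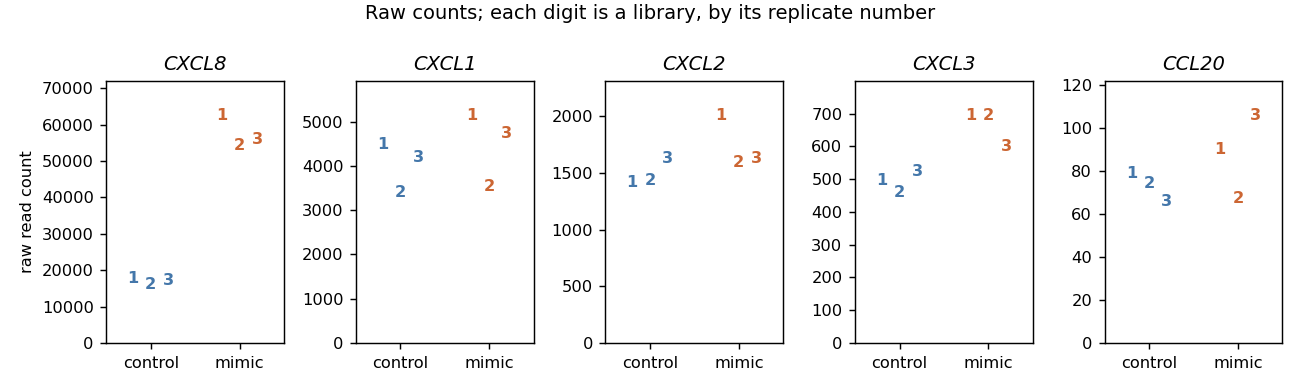
Raw read counts of the 5 tested chemokine genes, each panel on its own axis from 0, with each library drawn as its replicate number. Library 2 is the lowest of both groups for CXCL1, and the CXCL8 groups are far apart, at most 17751 against at least 54381 reads.

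In each group the order of levels was CXCL8, CXCL1, CXCL2, CXCL3, CCL20 and CXCL16, and no neighbours in that order overlapped over the 3 libraries of either group. The 6 levels summed to 386, 338 and 385 FPKM in the control libraries and 1036, 881 and 924 FPKM in the mimic libraries. CXCL8 made up 62.1% to 64.5% of the sum in control and 82.8% to 85.2% in mimic. Without CXCL8 the sums overlapped, at 120 to 146 FPKM in control and 131 to 178 FPKM in mimic. The ratio of CXCL8 to CXCL1 was 2.26, 2.67 and 2.34 in the control libraries and 6.93, 8.79 and 6.75 in the mimic libraries. The higher sum in the mimic group therefore lay mostly in CXCL8. Of the 5 tested chemokine genes, 2 (CXCL8 and CXCL3) passed as higher at an adjusted threshold of 0.05, where 13.6% of all tested genes did. The same 2 had groups that did not overlap upward, as did 16.1% of all tested genes. None passed as lower, against 8.63% of all tested genes, and nothing is read from these counts because the genes were chosen on this contrast.

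CXCL8, CXCL1, CXCL3 and CXCL2 lie within 358788 bases of chromosome 4. CXCL5, a neutrophil attractant encoded between CXCL1 and CXCL3, had 22, 16 and 20 reads in the control libraries and 22, 24 and 16 in the mimic libraries. MTHFD2L, a gene of mitochondrial folate metabolism just outside this stretch, had 730 to 798 reads in control and 752 to 838 in mimic. Within the stretch the groups of CXCL8 and CXCL3 did not overlap, and those of CXCL1, CXCL2 and CXCL5 did. Outside it, the MTHFD2L groups overlapped, and AC093677.2, below the filter, had 28, 54 and 25 reads in control and 19, 17 and 12 in mimic, with no overlap.

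The 3′ untranslated regions of all but CXCL16 were rich in ATTTA, the core of AU-rich elements. CXCL8 held 8 in 1252 bases, CXCL2 held 8 in 721, CXCL3 held 7 in 673, CXCL1 held 4 in 706 and CCL20 held 3 in 481. Per kilobase these 5 ranged from 5.67 to 11.1, against a median of 1.78 over the 9055 genes, and CXCL16 had 1.02. CXCL2 had the most per kilobase, at 11.1, with a log2 fold change of 0.30, and CXCL8 had 6.39 per kilobase with 1.84. Whether the density bears on the differences between the groups was not tested. The next pair of stretches is shown because the capitals mark GTACAAA, a heptamer that CXCL8 and CXCL3, the 2 genes whose groups did not overlap, carry and the other 4 lack.
CXCL8: tgtttattatGTACAAAtagattctta
CXCL3: tgttacatttGTACAAAtgacatgata
The CXCL8 site is at bases 1077 to 1083 of its 3′ untranslated region and the CXCL3 site at bases 635 to 641. GTACAAA and AGTACAA came from an earlier scan of these same fold changes, so the match is no independent evidence. Of the 9055 genes, 1556 (17.2%) carried either heptamer. These had a median log2 fold change of 0.20 and 37.3% passed as higher, against -0.04 and 10.8% of the 7499 genes with neither. Because the heptamers were picked on these fold changes, a difference in this direction was built in and is no evidence. Genes carrying a heptamer also had longer 3′ untranslated regions, with medians of 3175 against 1172 bases, and the part of length in the difference was not tested.

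By pattern over the 6 libraries, measured as the root mean square difference in log2 level after subtracting the control mean, the genes most like CXCL8 of 10424 compared were ATXN10 (0.07), PLOD2 (0.09), MTMR6 (0.09), KAT2B (0.10) and ADAMTS1 (0.11). PLOD2, a collagen lysyl hydroxylase, had 3604, 3545 and 3501 reads in the control libraries and 11955, 12004 and 10997 in the mimic libraries. The genes most like CXCL1 were KRCC1, PXDC1 and FOXK2, each low in library 2 of both groups. Those most like CCL20 were LYRM1, AC006333.2 and LINC00339.

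**Figure D3:**
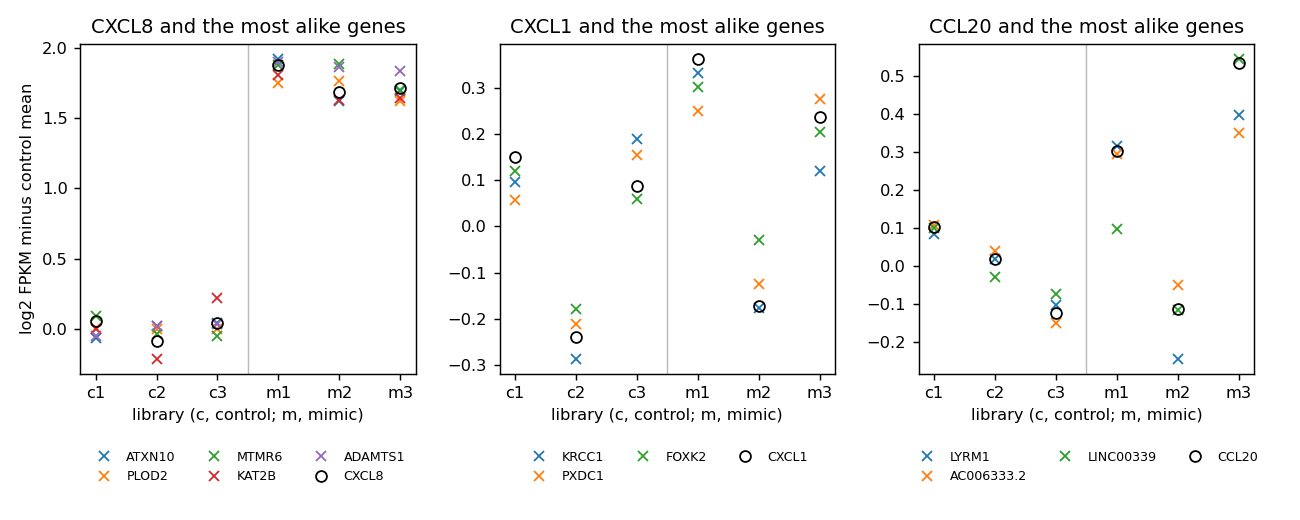
Log2 FPKM relative to the control mean in each library for CXCL8, CXCL1 and CCL20 (circles) and the genes whose pattern was most like each (crosses). CXCL8 and its 5 nearest genes lie near 0 in control and between 1.5 and 2 in mimic, whereas CXCL1 and CCL20 overlap between the groups.

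Among receptors, CXCR4, the receptor of CXCL12 and no receptor of the 6 chemokines, was the 1 of 23 that could be tested. It rose from counts of 250, 264 and 280 to 494, 424 and 472, with no overlap, a log2 fold change of 0.88 ± 0.11 (SE, edgeR quasi-likelihood, Benjamini-Hochberg adjusted p = 0.0021). CXCR1 and CXCR2, the receptors of CXCL8, are not listed under those names in the table, and CCR6, the receptor of CCL20, is only in a row merged with another gene. CXCR6, the receptor of CXCL16, had 40 to 63 reads in control and 42 to 75 in mimic, below the filter. In the fit without a filter, where 5.12% of 27589 rows passed as higher and 2.63% as lower, CCRL2, a receptor that binds chemerin, passed as higher. Its counts were 56, 29 and 56 in control and 122, 73 and 100 in mimic (edgeR, adjusted p = 0.0359). CCL28, a mucosal chemokine, passed as lower in that fit, with 56, 50 and 46 reads in control and 18, 5 and 19 in mimic (edgeR, adjusted p = 0.0258). These 2 were singled out after their values were seen. Of 38 other chemokine ligands, 12 had a row and 0 passed the filter, and no library exceeded 0.582 FPKM for any of them.

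The inputs that act on chemokine genes, ligands and adaptors of the IL-1, IL-17 and TNF pathways, held calls at close to the shares over all genes. Of 20 tested genes, 3 rose and 2 fell, where 13.6% of all tested genes rose and 8.63% fell. The median log2 fold change was 0.03, against -0.01 over all tested genes. TAB3, which links the kinase TAK1 to ubiquitin chains, rose from 3.27 ± 0.22 FPKM to 6.44 ± 0.35 FPKM (SD, n = 3), a log2 fold change of 1.05 ± 0.07 (SE, edgeR adjusted p = 0.000213). TAB2, its paralogue, fell by 0.76 ± 0.15 on the log2 scale (edgeR adjusted p = 0.0127), from counts of 4469, 3837 and 2955 to 2271, 1842 and 2180. IL1B, which encodes the cytokine interleukin-1 beta, rose from 226 ± 7.35 FPKM to 296 ± 3.83 FPKM (SD, n = 3), a log2 fold change of 0.47 ± 0.04 (edgeR adjusted p = 0.000521). IL1A, its sister cytokine, rose by 0.25 (edgeR adjusted p = 0.0163) and TAB1, another TAK1 partner, fell by 0.27 on the log2 scale (edgeR adjusted p = 0.0302). IL1A lost its call under library-total scaling, both limma fits and without control library 2 or 3, and TAB1 lost its call in 8 of 15 alternatives, among them each fit without 1 library, the replicate block and the fit without a filter. TNF itself, below the filter, had 4, 3 and 0 reads in control and 15, 4 and 6 in mimic. It did not pass in the fit without a filter (edgeR adjusted p = 0.412).

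Of 16 tested NF-kB subunits and regulators, 2 rose and 0 fell (median -0.08), where 13.6% of all tested genes rose and 8.63% fell. Library totals and both limma fits gave 1 that rose and 2 that fell. CYLD, a deubiquitinase that restrains NF-kB, rose by 0.90 ± 0.07 on the log2 scale (edgeR adjusted p = 0.000408), from 4.02 to 7.13 FPKM. OTULIN, which trims linear ubiquitin, rose by 0.25 (edgeR adjusted p = 0.0163), a call lost under library-total scaling, both limma fits, and without control library 1 or 3. RELA, the subunit that activates most NF-kB targets, had a log2 fold change of -0.34 ± 0.26 (SE, edgeR adjusted p = 0.391), with control library 2 at 3644 reads against 1805 and 1987 in the others, and a range of -0.53 to 0.05 over the alternatives. NFKB1 had -0.14 ± 0.07 (SE, edgeR adjusted p = 0.192). RELA and NFKB1 are named for their role.

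Of 11 tested AP-1 and C/EBP factors, 2 rose and 1 fell (median 0.13), against 13.6% and 8.63% of all tested genes. JUN, the AP-1 subunit that binds the TGANTCA motif with FOS proteins, rose from counts of 5797, 5577 and 5780 to 8760, 8296 and 8317. Its log2 fold change was 0.64 ± 0.04 (SE, edgeR adjusted p = 0.000169). CEBPG rose by 0.67 ± 0.08 (edgeR adjusted p = 0.00165). CEBPD, a C/EBP factor induced in inflammation, fell by 0.60 ± 0.14 on the log2 scale (edgeR adjusted p = 0.0252), and the call was lost with the replicate number as a block, in the fit without a filter and without control library 1 or 3 or mimic library 1 or 3. FOS, named for its role, had counts of 100, 149 and 135 in control and 167, 296 and 197 in mimic, a log2 fold change of 0.86 ± 0.26 (SE, edgeR adjusted p = 0.0583). It passed in 4 alternatives, including DESeq2.

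Of 18 tested regulators of AU-rich messenger RNA, 7 rose and 2 fell (median 0.19), beside 13.6% that rose and 8.63% that fell among all tested genes. ZFP36L2, which binds AU-rich elements and promotes decay, rose from 4.61 ± 0.21 FPKM to 10.0 ± 1.30 FPKM (SD, n = 3), a 2.30-fold difference (edgeR adjusted p = 0.000619). RC3H2 and RC3H1, the roquin proteins that bind stem-loops in cytokine messages, rose by 0.56 and 0.40 (edgeR adjusted p = 0.00159 and 0.00377). The other 4 that rose were MAPK14, which encodes p38 alpha (0.32), TIAL1 (0.31), ZFP36L1 (0.28) and CNOT7 (0.21), a deadenylase subunit whose call was lost in 10 of 15 alternatives. HNRNPD, also called AUF1, fell by 0.42 and the deadenylase PARN fell by 0.39 on the log2 scale (edgeR adjusted p = 0.00855 and 0.0103). The list thus holds both decay factors that rose and decay factors that fell.

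Of 17 tested genes for shedding and matrix anchoring, 1 rose and 0 fell (median -0.07), beside 13.6% and 8.63% of all tested genes. TIMP3, an inhibitor of ADAM17 and of matrix metalloproteases, rose by 1.11 ± 0.29 on the log2 scale (edgeR adjusted p = 0.0337), from 229, 118 and 145 reads to 427, 252 and 329, a call lost without control library 2 or 3 or mimic library 1 or 3. ADAM10 and ADAM17, the sheddases of CXCL16, had log2 fold changes of 0.16 ± 0.08 and 0.05 ± 0.05 (SE, edgeR adjusted p = 0.182 and 0.48), and ADAM17 ranged from -0.03 to 0.09 over the alternatives. Of 13 tested genes that relay chemokine receptor signals, 3 rose and 2 fell (median 0.03), beside 13.6% and 8.63% of all tested genes, and the number that fell ranged from 0 to 4 over the alternatives. GNG5, a G protein gamma subunit, rose from 31.6 ± 4.61 FPKM to 78.5 ± 4.56 FPKM (SD, n = 3), a log2 fold change of 1.39 ± 0.12 (edgeR adjusted p = 0.000417). GNB1, a beta subunit, rose by 0.43 (edgeR adjusted p = 0.000788). GRK2, a kinase that desensitises receptors, fell by 0.30 on the log2 scale (edgeR adjusted p = 0.0127), a call lost without control library 3. RGS3 rose by 0.33 and GNAI2 fell by 0.16 on the log2 scale (edgeR adjusted p = 0.0397 and 0.0423), and each lost its call in every fit without 1 library, with the replicate block and without a filter, RGS3 in 11 of 14 alternatives and GNAI2 in 9 of 15.

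**Figure D4:**
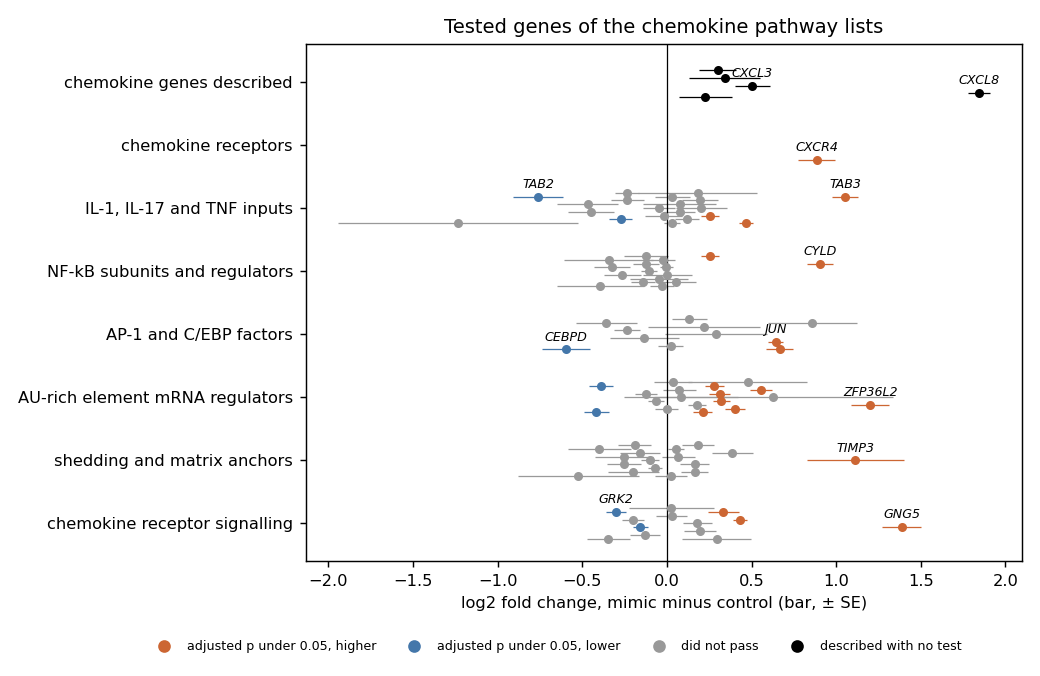
Log2 fold change with SE for each tested gene of the lists, 1 line of points per list, coloured by the edgeR call. The chemokine genes described here are drawn in black, whatever their call, as described with no test. CXCL8 at 1.84 lies above all other points, the next being GNG5 at 1.39. In the NF-kB list CYLD is at 0.90 and the other genes lie between -0.39 (NFKBIZ) and 0.25 (OTULIN).

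The libraries held 31643826 to 32363456 counts each. The labelled cell line was checked by its markers: VIM, CD44, EGFR, CAV1, MSN, ANXA1 and LGALS1 passed the filter and SPARC did not. Of these 7, 4 (VIM, CD44, CAV1 and MSN) were called higher in mimic, beside 13.6% of all tested genes. The oestrogen receptor gene ESR1 is in a merged row only, and CDH1 and EPCAM had at most 20 reads in any library. Of the luminal markers, KRT19, KRT8, ERBB2, GATA3 and FOXA1 passed the filter. KRT19 was at 78.7 FPKM in control and 77.5 in mimic, and KRT8 at 13.13 and 13.25. ERBB2 was at 4.43 and 4.00, FOXA1 at 2.12 and 1.64, and GATA3 at 1.56 and 1.45. Of 18 markers of leukocytes and stroma, which could also supply chemokine transcripts, 11 had a row of their own. These 11 summed to 0.461 to 0.993 FPKM in control and 0.438 to 1.02 FPKM in mimic, and none passed the filter. A further 6 had no row under their names and CD68 was only in a merged row, so these were not judged. In the fit without a filter 1 of the 11, PECAM1 of endothelium and platelets, passed as higher in mimic. It had 5, 4 and 7 reads in control and 26, 17 and 17 in mimic (edgeR adjusted p = 0.0471). Its part in the chemokine values was not tested. In bulk RNA, more cells making a transcript and more RNA per cell cannot be told apart.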

How the data were processed

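Poly(A) RNA of 6 MDA-MB-231 libraries, 3 per group, was sequenced. Per the submitters' processing notes, reads were handled with cutadapt 1.9 and FastQC, and the build was GRCh38 (hg38). The aligner, counter, annotation and strand setting were not given in the sources used here. Overlapping antisense genes may therefore share reads. The deposited table gives raw counts and FPKM per library. The deposited FPKM equals the count divided by the row's length and the library total. Of 66381 rows, 38792 name no gene, holding 2.46% to 2.70% of the counts. They entered neither library sizes nor tests.

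The counts were tested with edgeR 4.0.16 (R 4.3.3): TMM, the quasi-likelihood F test, two-sided, with Benjamini-Hochberg adjustment over 11260 rows having FPKM of at least 1 in at least 3 libraries and a threshold of 0.05. It called 1534 genes higher and 972 lower. The procedure was checked on simulated data. Alternatives were DESeq2 1.42.0 and its size factors, library totals, limma 3.58.1 on log2(FPKM + 1) and log2(FPKM + 0.1), other filters, unnamed rows kept, a replicate block and leaving out each library. Precision rests on 3 libraries per group, and no 2 libraries agreed within sampling noise.

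The members and gene lists were chosen with earlier results of these data known. Named genes were the 6 members, every measured ligand and receptor that passed the filter, up to 3 genes per other list with the smallest p among those called, and the most alike genes by pattern. Others are named to complete the called genes of a list, or for their role, after their values were seen. Promoters and the microRNA came from RefSeq (GRCh38.p14), where 5 of 6 chemokine promoters matched by symbol, and untranslated regions from GENCODE 29.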

Additional observations from a re-analysis of the deposited data

How the results depend on the processing

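Over the 15 alternatives the log2 fold changes were 1.76 to 1.88 for CXCL8, 0.13 to 0.37 for CXCL1, 0.20 to 0.38 for CXCL2 and 0.15 to 0.50 for CCL20, which has no value at the FPKM filter of 5. These values come from the libraries on which the genes were chosen. Over all tested genes, same-numbered deviations correlated at -0.01, 0.08 and -0.05, and those of unlike number at -0.07 to 0.08. These values showed no pairing by replicate number over all genes together. They cannot exclude a shared pattern in single genes, and CXCL1 was lowest in library 2 of both groups. With the replicate block, 1922 genes were called, 1 chemokine gene instead of 2 passed as higher, and CXCL3 was at 0.504 with its call lost. Leaving out 1 library gave 1 to 2 such genes and 0.461 to 0.578 for CXCL3.

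The 2506 calls in all became 1569 to 2206 with 1 library left out (1569 without control library 3). The 972 lower calls became 1783 with library totals, 1707 and 1680 with limma at pseudocounts of 1 and 0.1, and 473 to 842 with 1 library left out. The split of calls moved with scaling: 61.2% were higher here, against 38.9% with library totals and 39.8% and 39.9% with the limma fits. The 7 list genes called lower became 15 with library totals, 11 with DESeq2, 14 with each limma fit, 11 at the FPKM filter of 5, and between 4 and 6 with 1 library left out. Of 695 values for single named genes and chemokine genes, 626 kept their call or lack of one, 63 lost the call and 6 gained it. Of called values, 0 reversed, but values without a call could change sign, as for RELA and ADAM17. The cause of these changes was not tested. Depth limits CCL20 and CXCL16, at 53 to 106 reads, where a difference of the size seen in CXCL3 may not be detectable.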
